A study of Mus musculus with 12 samples.

Results

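Expression was examined for 31 genes that encode subunits of glutamate and GABA receptors, in the hippocampus and ileum of mice with and without the enhancer FIRE. The genes were listed by symbol, with no threshold on a measured value, and they are 31 of the 18820 genes with a transcript cluster of their own. They comprise 4 AMPA, 5 kainate and 5 NMDA receptor subunits, 6 metabotropic glutamate receptors, 9 GABA-A receptor subunits and 2 GABA-B receptor subunits. Total RNA was hybridised to 12 Affymetrix Mouse Gene ST arrays, with 3 arrays in each of 4 groups: hippocampus FIRE +/+, hippocampus FIRE -/-, ileum FIRE +/+ and ileum FIRE -/-. FIRE, the fms-intronic regulatory element, is an enhancer of *Csf1r*, the gene for the macrophage colony-stimulating factor receptor, and FIRE -/- mice carry its deletion on both alleles. All mice were 6 weeks old, of the strain C57BL/6J/CBA, and were perfused with saline. The deletion line descends from 1 male founder, made by injecting guide RNAs and Cas9 into oocytes, who was bred to C57BL/6J females and whose offspring were interbred. The ileum pieces were described as holding a Peyer's patch, but a B cell list was high on 2 of the 6 ileum arrays. By their labels, hippocampus arrays E07 and F07 (male) and G07 (female) were FIRE +/+, and A09 (male), B09 and H07 (female) were FIRE -/-. Ileum arrays C09 and D09 (male) and E09 (female) were FIRE +/+, and G09 (male), F09 and H09 (female) were FIRE -/-. The sources used here do not say whether 1 mouse gave both tissues or whether the mice were littermates, so p-values measure the spread between these arrays.

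Glutamate is the main excitatory transmitter of the brain and GABA the main inhibitory one. AMPA, kainate and NMDA receptors are cation channels assembled from subunits around a pore, and GABA-A receptors are chloride channels, while metabotropic glutamate receptors and GABA-B receptors act through G proteins. Pyramidal cells, granule cells and interneurons of the hippocampus carry these receptors, some subunits are also made by glia, and microglia respond to transmitter and can remove synapses. In the gut, enteric neurons also use such receptors, at a small share of the tissue.

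The tissue and genotype labels were set against marker genes before any result was drawn. All values are log2 signals made by robust multi-array averaging (RMA), and a difference of 1 is a doubling of signal. All 9 measured genes of a central neuron list were higher in hippocampus than in ileum (median difference 6.28) and all 8 gut epithelium genes were lower (median -8.19). *Csf1r* itself read 8.34, 8.31 and 8.15 on the FIRE +/+ hippocampus arrays and 3.58, 3.69 and 3.65 on the FIRE -/- arrays, and all 12 measured microglia genes fell in the FIRE -/- hippocampus (median -3.11). *Xist* signal was 2.44 and that of the Y-linked gene *Eif2s3y* 6.18 on B09, whose label says female, and both were like those of the arrays labelled male. The choroid plexus list averaged 4.92 on F07 and 6.91 to 7.83 on the other hippocampus arrays. In the ileum, the B cell list averaged 7.57 on D09 and 7.73 on F09 but 3.23 to 3.54 on the other 4 arrays, where the markers go against the stated Peyer's patch, and *Ms4a1* (CD20) read 7.66 and 7.68 against 2.14 to 2.68. What part these differences play in the results below was not tested.

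In the hippocampus, none of the 31 genes passed the limma test of FIRE -/- against FIRE +/+ (adjusted p from 0.992 to 0.998), where 95 of all 21218 clusters tested (0.448%) passed. At an unadjusted p under 0.05 there were 2 of 31, *Grin2c* and *Grin2d*, against 4.73% of all clusters. With the variance of each cluster taken alone there were also 2, and 0 after adjustment. Over 15 alternative settings that count ran from 0, in 5 of them, to 3 without F07. It was 0 with labelled sex as a covariate, in 1 fit of all 12 arrays and without A09, E07 or H07. For B09 that label goes against the *Xist* and *Eif2s3y* signal given above. The arrays of both genotypes did not overlap for 3 of 31 genes, *Grin2c*, *Grin2d* and *Gabrg3*, against 9.66% of all clusters, a share near the background. By sign, 20 of the differences were positive and 11 negative, against 11146 and 10072 over all clusters. Their median was 0.04, against 0.0077 over all clusters. The 95% confidence intervals of the 31 genes ran from -0.48 to 0.98. All 31 lay within 1 log2 unit of no difference and 25 within 0.5, so in this fit a 2-fold change of signal in either direction was outside every interval. Each interval is for a single gene, and that of *Grm8* reached 0.98. Without F07 the estimate for *Grm8* was 0.69, and no interval was taken for that setting. In bulk tissue, fewer cells of a type and less RNA per cell cannot be told apart.

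**Figure D1:**
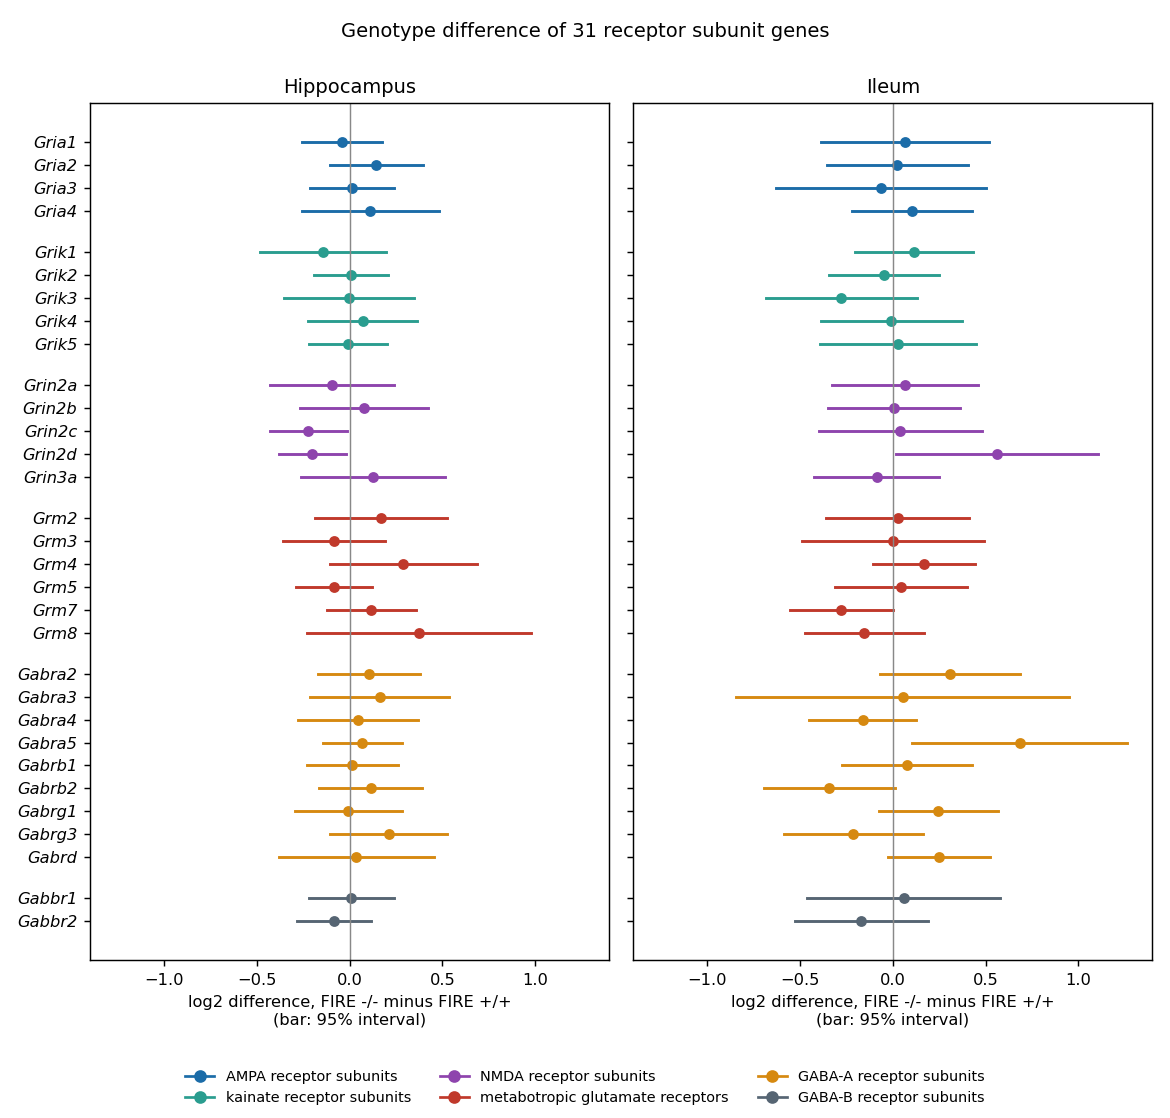
Log2 difference, FIRE -/- minus FIRE +/+, of the 31 receptor subunit genes in hippocampus (left) and ileum (right), with 3 arrays per group. Points are limma estimates, bars are 95% confidence intervals and colours are receptor classes, and all 31 intervals in the hippocampus lie between -0.48 and 0.98.

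AMPA receptors carry most fast excitatory transmission. Their 4 subunit genes had a median genotype difference of 0.06 in the hippocampus. *Gria2*, whose product keeps AMPA channels nearly impermeable to calcium, had the largest difference of the class. It read 9.92, 9.91 and 9.60 on the FIRE +/+ arrays E07, F07 and G07, and 9.94, 9.92 and 9.996 on the FIRE -/- arrays A09, B09 and H07. G07 alone was low, the genotypes overlapped, and the difference was 0.14 (SE 0.11, limma adjusted p = 0.992). *Gria3*, an X-linked subunit gene, had the smallest, with 9.80, 9.91 and 9.69 in FIRE +/+ and 9.86, 9.70 and 9.87 in FIRE -/- mice. Its arrays interleaved, with a difference of 0.01 (SE 0.10, 95% confidence interval -0.21 to 0.24). *Gria1*, abundant at pyramidal cell synapses, differed by -0.04 (SE 0.09) and *Gria4* by 0.11 (SE 0.16).

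Kainate receptor subunits modulate transmitter release and excitability, and their 5 genes had a median difference of -0.01. *Grik1* had the largest, at 5.37, 5.67 and 5.39 in FIRE +/+ and 5.46, 5.04 and 5.49 in FIRE -/- hippocampus. Only B09 lay below the FIRE +/+ arrays, and the difference was -0.14 (SE 0.15, 95% confidence interval -0.48 to 0.19). *Grik3* had the smallest, with 7.79, 8.27 and 7.72 in FIRE +/+ and 7.96, 7.82 and 7.99 in FIRE -/- mice. F07 was the highest array for it, the genotypes overlapped, and the difference was -0.0053 (SE 0.15). *Grik2*, which forms channels on its own, and *Grik4* and *Grik5*, which need a partner, differed by 0.0056, 0.07 and -0.01.

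NMDA receptors are calcium-permeable channels needed for many forms of synaptic plasticity, and the class had a median of -0.10. It held both genes with an unadjusted p under 0.05. *Grin2c* is best known from cerebellar granule cells. It read 6.88, 6.86 and 6.83 on the FIRE +/+ arrays and 6.62, 6.75 and 6.53 on the FIRE -/- arrays. Every FIRE -/- array lay below every FIRE +/+ array, by a mean of -0.22 (SE 0.09, unadjusted p = 0.0376, limma adjusted p = 0.992). *Grin2d*, a subunit gene of interneurons and of early life, read 5.92, 5.89 and 5.94 in FIRE +/+ and 5.70, 5.75 and 5.68 in FIRE -/- mice. These arrays did not overlap either, with a difference of -0.20 (SE 0.08, unadjusted p = 0.0351, limma adjusted p = 0.992). Over all 15 alternative settings the difference stayed between -0.32 and -0.17 for *Grin2c* and between -0.23 and -0.18 for *Grin2d*, with no adjusted p past the threshold. An 8-gene interneuron list averaged 7.95 to 8.17 on the FIRE +/+ and 8.02 to 8.15 on the FIRE -/- hippocampus arrays. An 8-gene astrocyte list averaged 9.51 to 9.67 and 9.66 to 9.78. Of its genes 6 were higher and 2 lower in FIRE -/- mice. *Gfap* was higher on every FIRE -/- array, at 9.59 to 9.77 against 8.99 to 9.28. *Aldoc* was lower on every one, at 11.88 to 11.92 against 11.93 to 11.97. A relation of either list to *Grin2c* or *Grin2d* was not tested.

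*Grin2b*, one of the subunit genes that predominate in forebrain NMDA receptors, had the smallest difference of the class. Its values were 10.59, 10.42 and 9.997 in FIRE +/+ and 10.43, 10.36 and 10.45 in FIRE -/- hippocampus. The FIRE -/- arrays lay inside the FIRE +/+ range, and the difference was 0.08 (SE 0.15, 95% confidence interval -0.27 to 0.42). *Grin2a*, which rises with postnatal age, differed by -0.10 (SE 0.14) and *Grin3a*, which lowers calcium entry, by 0.12 (SE 0.17).

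The 6 metabotropic glutamate receptors had the largest class median, 0.14. *Grm8*, a presynaptic receptor of group III, had the largest positive difference of the 31 genes. It read 4.59, 5.55 and 4.63 on E07, F07 and G07, and 5.58, 5.05 and 5.26 on A09, B09 and H07. F07 lay within the FIRE -/- range and the other FIRE +/+ arrays below it, so the difference of 0.37 had an SE of 0.26 (95% confidence interval -0.23 to 0.98, limma adjusted p = 0.992). Its spread over the 6 hippocampus arrays (SD 0.43) was the largest of the 31 genes. With single arrays or settings changed, the estimate for *Grm8* ran from 0.21 without E07 to 0.69 without F07, the array with few choroid plexus transcripts. *Grm4*, also of group III, had 5.86, 6.59 and 6.28 in FIRE +/+ and 6.55, 6.59 and 6.46 in FIRE -/- mice. E07 was low for it, the genotypes overlapped, and the difference was 0.29 (SE 0.17). *Grm7*, the third presynaptic receptor of this group, differed by 0.12 (SE 0.10). The group II receptor genes *Grm2* and *Grm3*, the latter also made by astrocytes, differed by 0.17 (SE 0.15) and -0.09 (SE 0.12). *Grm5*, a postsynaptic receptor that releases calcium from stores, had the smallest difference. Its values were 10.54, 10.65 and 10.71 in FIRE +/+ and 10.57, 10.48 and 10.61 in FIRE -/- hippocampus. They overlapped, at -0.08 (SE 0.09, 95% confidence interval -0.29 to 0.12).

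GABA-A receptors mediate fast inhibition, and their 9 genes had a median difference of 0.07, with 8 positive and 1 negative. Over all 21218 clusters, 11146 differences were positive. Without G07, a FIRE +/+ array, *Gabra4* was at -0.07 and *Gabrb1* at -0.08. *Gabra2*, *Gabra3* and *Gabrb2* were each at 0.01 in that setting. *Gabrg3*, a gamma subunit gene, was the remaining gene whose genotypes did not overlap. It read 8.75, 8.84 and 8.33 in FIRE +/+ and 8.85, 8.84 and 8.86 in FIRE -/- hippocampus. F07 and B09 were almost level and G07 was low, so the difference was 0.21 (SE 0.14, unadjusted p = 0.161, limma adjusted p = 0.992). Without G07 it was 0.06. *Gabrg1*, another gamma subunit gene, had the smallest difference, with 7.20, 7.37 and 7.06 in FIRE +/+ and 7.24, 7.01 and 7.36 in FIRE -/- mice. Its arrays interleaved, at -0.0071 (SE 0.12). The alpha subunit genes *Gabra2*, *Gabra3*, *Gabra4* and *Gabra5*, which set where the receptor sits and its drug sensitivity, differed by 0.10, 0.16, 0.04 and 0.07. The beta subunit genes *Gabrb1* and *Gabrb2* differed by 0.01 and 0.11, and *Gabrd*, a subunit of extrasynaptic receptors on dentate granule cells, by 0.04.

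GABA-B receptors need both subunits, one that binds GABA and one that couples to the G protein. *Gabbr1*, the GABA-binding subunit, read 10.97, 10.97 and 10.71 in FIRE +/+ and 10.93, 10.89 and 10.86 in FIRE -/- hippocampus. The FIRE -/- arrays lay inside the FIRE +/+ range, at a difference of 0.0085 (SE 0.10, 95% confidence interval -0.22 to 0.24). *Gabbr2*, the coupling subunit, read 10.80, 10.76 and 10.70 in FIRE +/+ and 10.69, 10.58 and 10.74 in FIRE -/- mice. It overlapped as well, at -0.08 (SE 0.09, 95% confidence interval -0.28 to 0.12).

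The 31 genes also varied between arrays of 1 genotype. G07 (FIRE +/+) had the lowest value of the 6 hippocampus arrays for 19 of the 31 genes, and its median deviation from the gene means was -0.17, against -0.04 to 0.10 on the other 5 arrays. Over the 6954 clusters with a mean signal above 7, the median deviation of G07 was -0.06. The central neuron list averaged 10.82 on G07 and 10.91 to 10.95 on the other arrays. F07, also FIRE +/+, had the highest value for 13 genes and E07 for 10. Without G07 the median genotype difference of the 31 genes was -0.05 in place of 0.04, and 10 genes changed sign, with 0 passing the test and 1 at an unadjusted p under 0.05. With array weights the median was -0.01, so its sign was not stable.

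**Figure D2:**
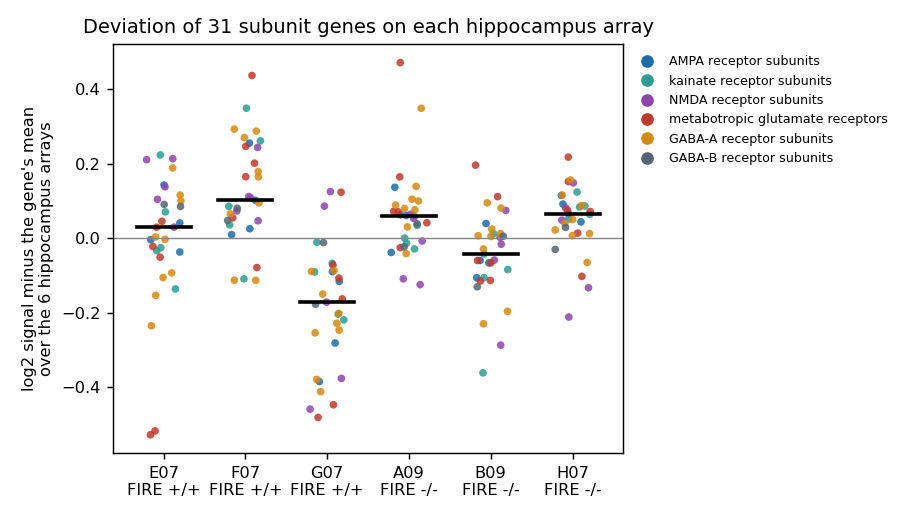
Deviation of each of the 31 genes from its mean over the 6 hippocampus arrays (log2), by array, with classes in colour and the median of each array as a black bar. The median of G07 is -0.17 and those of the other arrays lie between -0.04 and 0.10.

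In the ileum, too, none of the 31 genes passed (limma adjusted p from 0.9995 to 0.9997), where 0 of 21218 clusters (0%) passed. At an unadjusted p under 0.05 there were 3 of 31, *Gabra5*, *Grin2d* and *Grm7*, against 3.39% of all clusters, and with the variance of each cluster alone there was 1, with 0 passing. Over 15 alternative settings the count ran from 0, without G09 and with the filter on dim clusters, to 5 with array weights. Genotypes did not overlap for 3 of 31, *Gabra5*, *Gabrd* and *Grm7*, against 8.04%. *Gabra5* read 2.13, 2.73 and 2.79 on the FIRE +/+ arrays C09, D09 and E09, and 3.08, 3.66 and 2.96 on the FIRE -/- arrays F09, G09 and H09. It was higher on every FIRE -/- array, by 0.68 (SE 0.25, unadjusted p = 0.0269, limma adjusted p = 0.999), though on all 6 arrays its signal lay below the array's median signal, which was 4.29 to 4.46 over the 12 arrays. *Grin2d* read 4.58, 4.17 and 4.02 in FIRE +/+ and 5.03, 5.06 and 4.38 in FIRE -/- ileum. H09 fell among the FIRE +/+ arrays, and the difference was 0.56 (SE 0.23, unadjusted p = 0.0443). *Grm7* read 3.13, 3.25 and 3.32 in FIRE +/+ and 3.10, 2.84 and 2.93 in FIRE -/- ileum. Its FIRE -/- arrays were all lower, by -0.28 (SE 0.12, unadjusted p = 0.0490), again below the array median on all 6 arrays. *Gabrd* read 3.35, 3.28 and 3.06 in FIRE +/+ and 3.41, 3.50 and 3.52 in FIRE -/- ileum. They did not overlap, at 0.25 (SE 0.12), also below the array median. Without the arrays rich in B cell transcripts, D09 and F09, a setting chosen with these levels known, *Gabra5* was at 0.85 and *Grin2d* at 0.42, and 0 of 31 genes passed. The smallest exact permutation p that 3 against 3 arrays allow is 0.1, two-sided.

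**Figure D3:**
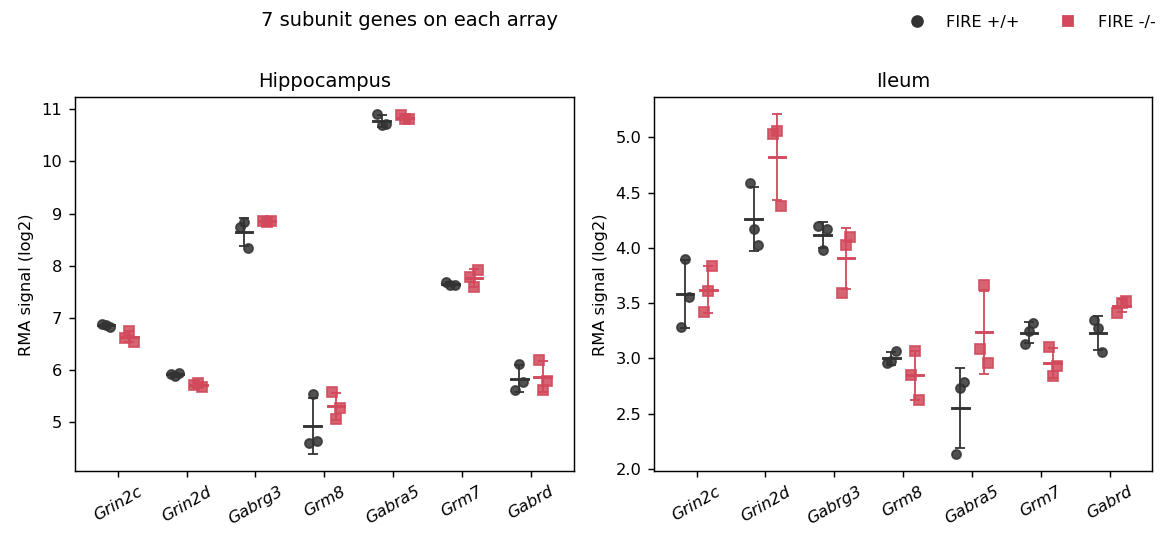
RMA signal (log2) of 7 receptor subunit genes on each array in hippocampus (left) and ileum (right), FIRE +/+ as circles and FIRE -/- as squares, with mean and SD (n = 3). The hippocampus values of *Grin2c* and *Grin2d* are lower on every FIRE -/- array, the ileum values of *Gabra5* are higher, and the 2 panels have separate signal axes.

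The genotype differences of both tissues were then compared in 1 fit of all 12 arrays, which uses the arrays of the comparisons above. None of the 31 genes passed (limma adjusted p = 0.9997), against 19 of 21218 clusters (0.0895%). At an unadjusted p under 0.05 there were 4 of 31, against 4.21%, and with the variance of each cluster alone 2, with 0 passing. Over 20 alternative settings the count ran from 1 without H07 to 6 without F07. *Grin2d* was at -0.20 in hippocampus and 0.56 in ileum, a difference of -0.76 (SE 0.26, unadjusted p = 0.0118). *Grm7* was at 0.12 and -0.28 (difference 0.39, unadjusted p = 0.0254), and *Gabra5* at 0.07 and 0.68 (difference -0.62, unadjusted p = 0.0480). *Gabrb2* was at 0.11 and -0.34 (difference 0.45, unadjusted p = 0.0406), but the other 2 clusters of this gene gave differences of -0.05 and 0.04.

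Between tissues the 31 genes shared 1 direction. They were chosen with earlier results of these data known. Of 8 measured receptor genes outside the 31, 3 were higher in hippocampus and 1 lower. All 31 genes were higher in hippocampus than in ileum (limma adjusted p from 1.59e-14 to 1.64e-06), where 32.2% of all clusters were. Every hippocampus array lay above every ileum array for 31 of 31 genes, against 26.7% of all clusters. The difference was at least 4 log2 units for 22 of 31 genes, against 3.38%. The median was 4.95, where that of all clusters was -0.05. Taken within FIRE +/+ mice 31 of 31 genes were higher (28.7% of all clusters) and within FIRE -/- mice 31 of 31 (29.5%), from separate arrays of each genotype. In the ileum the signal lay below the array median on all 6 arrays for 23 of the 31 genes and above it on all 6 for *Gabra3*, *Gabbr1* and *Grik5*, while no gene was below it on any hippocampus array. No detection calls were used, so a dim ileum signal shows neither expression nor its absence. The tissue differences below are therefore differences of measured signal and are not given as folds. For the 23 genes their order depends on the dim ileum signal as well as on the hippocampus signal. *Gabbr2*, with means of 10.71 in hippocampus and 3.98 in ileum, differed by 6.73. *Gria2*, with means of 9.88 and 2.61, differed by 7.27. A brain region was here set against a gut segment, so the receptors' difference and the share of neurons in each tissue cannot be told apart.

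**Figure D4:**
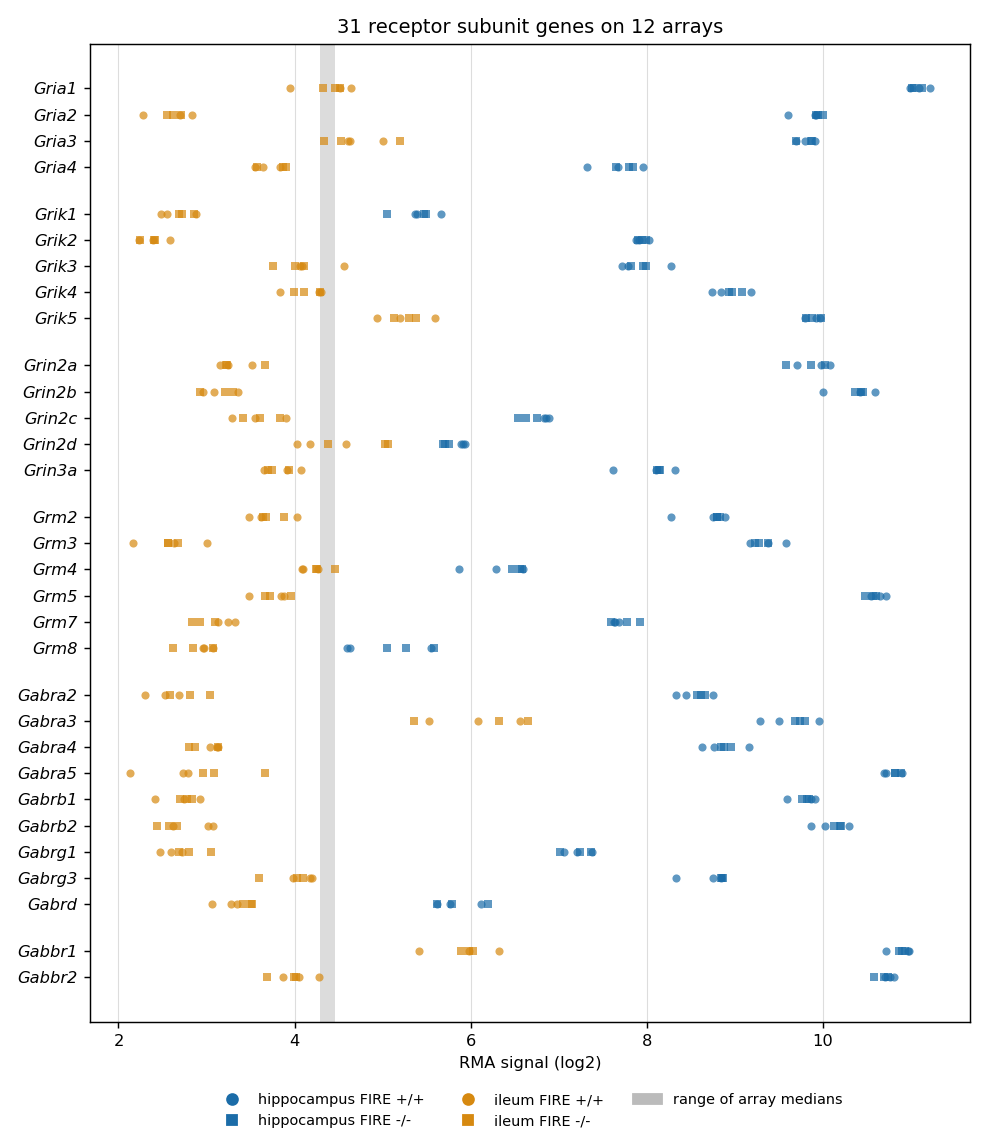
RMA signal (log2) of the 31 genes on 12 arrays, hippocampus in blue and ileum in orange, FIRE +/+ as circles and FIRE -/- as squares, with the range of the array medians (4.29 to 4.46) in grey. For all 31 genes the hippocampus arrays lie to the right of the ileum arrays, with the narrowest separation at *Grin2d*.

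Of the AMPA receptor genes, *Gria2* had the largest tissue difference. It ranged from 9.60 to 9.996 (median 9.92) over the hippocampus arrays and from 2.27 to 2.83 (median 2.66) over the ileum arrays. The tissues lay far apart, by 7.27 (SE 0.10). *Gria4* had the smallest of the class, with 7.32 to 7.96 (median 7.73) in hippocampus and 3.55 to 3.90 (median 3.74) in ileum, a difference of 3.98 (SE 0.11). *Gria1* and *Gria3* differed by 6.68 and 5.09. Among the kainate receptor genes, *Grik2* led with 7.87 to 8.03 (median 7.93) against 2.24 to 2.58 (median 2.40), a difference of 5.56 (SE 0.07). *Grik1* came last with 5.04 to 5.67 (median 5.43) against 2.49 to 2.88 (median 2.71), a difference of 2.71 (SE 0.10). *Grik5*, one of the few genes above the array median in ileum, differed by 4.64, *Grik4* by 4.82 and *Grik3* by 3.83.

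The NMDA receptor genes spanned the widest range of tissue differences among the ionotropic glutamate classes. *Grin2b* ranged from 9.997 to 10.59 (median 10.42) in hippocampus and from 2.92 to 3.35 (median 3.15) in ileum, a difference of 7.23 (SE 0.11). *Grin2d* ranged from 5.68 to 5.94 (median 5.82) in hippocampus and from 4.02 to 5.06 (median 4.48) in ileum. It had the smallest tissue difference of the 31 genes, 1.27 (SE 0.13), at 1.65 within FIRE +/+ and 0.89 within FIRE -/- mice. *Grin2a*, *Grin3a* and *Grin2c* differed by 6.53, 4.24 and 3.15.

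Of the metabotropic receptors, *Grm5* ranged from 10.48 to 10.71 (median 10.59) in hippocampus and from 3.48 to 3.96 (median 3.78) in ileum, a difference of 6.83 (SE 0.09). *Grm4* ranged from 5.86 to 6.59 (median 6.51) and from 4.08 to 4.46 (median 4.24), a difference of 2.16 (SE 0.11), and the group III receptor *Grm8* was close to it at 2.19 (SE 0.16). The intervals of *Grm4* (1.92 to 2.40) and *Grm8* (1.83 to 2.55) overlap. *Grm7*, of the same group, stood at 4.61. Both group II receptors were further apart between tissues, *Grm3* at 6.73 (SE 0.13) and *Grm2* at 5.002 (SE 0.12).

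The promoters of this pair are shown because 1 of them holds both parts of RE1, the element bound by the repressor REST, which holds down neuronal genes outside neurons. Each is the 250 bases before the outermost transcript start in RefSeq (GRCm38.p6), 5' to 3' on the gene's strand, with capitals for the searched motifs on either strand. *Grm2* lies on the minus strand at chr9:106656110-106656359 and *Grm3* on the minus strand at chr5:9725353-9725602.
Grm2: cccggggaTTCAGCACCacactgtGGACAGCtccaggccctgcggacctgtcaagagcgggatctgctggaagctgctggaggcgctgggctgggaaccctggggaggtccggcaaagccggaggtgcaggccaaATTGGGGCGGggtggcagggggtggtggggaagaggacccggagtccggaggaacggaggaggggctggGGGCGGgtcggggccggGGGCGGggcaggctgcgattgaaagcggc
Grm3: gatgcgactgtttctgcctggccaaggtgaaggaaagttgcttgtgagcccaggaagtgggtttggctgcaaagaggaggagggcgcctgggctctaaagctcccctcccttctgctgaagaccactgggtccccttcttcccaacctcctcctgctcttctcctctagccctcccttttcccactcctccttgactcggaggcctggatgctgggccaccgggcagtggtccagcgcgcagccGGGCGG
The letters TTCAGCACC, the left part of RE1, and GGACAGC, a shortened right part, stand in *Grm2* with 7 bases between them. Such a pair at most 12 bases apart, in order on either strand, was found in 1 of the 22 receptor genes with a window in the RefSeq table and in 3 of all 27025 windows (0.0111%). Singly, the left part was in 1 of 22 (0.292% of all windows) and the right part in 2 of 22 (5.28%). In the *Grm2* window the capitals after these mark a CCAAT box read on the opposite strand, ATTGG, which shares 1 base with the GC box, GGGCGG, that follows it, and further GC boxes. *Grm3* ends in a single GC box and holds neither part. The search took any gap up to its limit and did not ask for the spacing of a bound RE1. A match is a description of these letters only, and binding by REST was not tested.

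All 9 GABA-A receptor genes among the 31 had more signal in hippocampus. *Gabra5*, the alpha subunit of extrasynaptic receptors on hippocampal pyramidal cells, ranged from 10.69 to 10.90 (median 10.81) in hippocampus and from 2.13 to 3.66 (median 2.87) in ileum. Its signal differed by 7.91 (SE 0.14), with the ileum signal below the array median on all 6 arrays. *Gabrd* had the smallest of the class, with 5.62 to 6.20 (median 5.77) against 3.06 to 3.52 (median 3.38), a difference of 2.50 (SE 0.11). *Gabrb2* and *Gabrb1* differed by 7.38 and 7.06, *Gabra2* and *Gabra4* by 5.90 and 5.85, and *Gabrg3* and *Gabrg1* by 4.73 and 4.49. The other 2 clusters of *Gabrb2* gave 7.61 and 6.59. *Gabra3* differed by 3.58 (SE 0.23). It had a hippocampus range of 9.28 to 9.95 and an ileum range of 5.35 to 6.65, the widest ileum spread of the 31 genes (SD 0.54). Several of these genes are neighbours: among protein-coding genes on chromosome 5, *Gabrg1* lies next to *Gabra2* and *Gabra4* next to *Gabrb1*, with 1 gene between the pairs, and on chromosome 7 *Gabrg3* lies next to *Gabra5*.

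The promoters of *Gabra2* and *Gabra3* are set side by side because they are alpha subunit genes of opposite base composition, the first with an ileum signal below the array median and the second above it. They are taken and marked as for *Grm2*. *Gabra2* lies on the minus strand at chr5:71095850-71096099 and *Gabra3* on the minus strand at chrX:72656920-72657169 (GRCm38.p6).
Gabra2: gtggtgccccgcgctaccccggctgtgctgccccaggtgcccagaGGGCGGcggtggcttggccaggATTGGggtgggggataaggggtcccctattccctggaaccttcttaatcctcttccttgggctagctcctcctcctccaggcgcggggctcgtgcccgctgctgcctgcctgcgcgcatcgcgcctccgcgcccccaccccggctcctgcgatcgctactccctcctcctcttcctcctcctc
Gabra3: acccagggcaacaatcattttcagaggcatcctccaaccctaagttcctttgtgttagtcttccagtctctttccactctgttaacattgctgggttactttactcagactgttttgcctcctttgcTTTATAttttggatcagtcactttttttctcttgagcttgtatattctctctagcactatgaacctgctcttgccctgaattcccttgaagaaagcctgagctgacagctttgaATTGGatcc
The *Gabra2* window was 70.0% G and C with 18 CpG dinucleotides and held a GC box (GGGCGG) and a CCAAT box (ATTGG on the shown strand). The *Gabra3* window was 42.4% G and C with 0 CpG. It held the letters of a TATA box on the opposite strand (TATAAA, shown as TTTATA), 123 to 118 bases before the start. Those of a CCAAT box, also on the opposite strand, stood 9 to 5 bases before it. In both windows these are matches of letters only, and their use as promoter elements was not tested. Other receptor genes differed from *Gabra2* and *Gabra3*. *Grik5* and *Gabbr1*, also above the array median on all 6 ileum arrays, had windows of 75.2% and 66.0% G and C. *Gabrg1*, below it on all 6, had 35.6% and 1 CpG. A relation of base composition to ileum signal was not tested. Over the 22 receptor genes with a window the median was 63.6% G and C and 15.5 CpG, against 52.0% and 6 over all 27025 windows, and 20 of 22 held more CpG than the median of all. The GC box was in 14 of 22 windows and 8907 of all 27025. The CCAAT box was in 8 of 22 (34.5% of all), the TATA box in 2 of 22 and 3507 of all 27025, and the cAMP response element TGACGTCA in 0 of 22 (1.6% of all), each searched on both strands.

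The GABA-B receptor genes were both high in hippocampus. *Gabbr2* ranged from 10.58 to 10.80 (median 10.72) in hippocampus and from 3.68 to 4.28 (median 4.001) in ileum, a difference of 6.73 (SE 0.09). *Gabbr1* ranged from 10.71 to 10.97 (median 10.91) and from 5.42 to 6.32 (median 5.98), a difference of 4.95 (SE 0.13). The ileum held signal above the array median on all 6 arrays for the GABA-binding subunit and below it on all 6 for its partner. By class, the median tissue difference was 5.88 for AMPA, 4.64 for kainate, 4.24 for NMDA, 4.81 for metabotropic, 5.85 for GABA-A and 5.84 for GABA-B receptor genes, and the ranges of the classes overlapped.

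Genes of the same pathways were taken from lists of fixed membership. No gene of these lists passed the genotype test in the hippocampus. The lowest unadjusted p was that of *Slc6a13*, a GABA transporter also made in the meninges, at 0.00339 with a difference of 0.50, on arrays where an 8-gene meningeal fibroblast list averaged 6.65 to 6.92 in FIRE +/+ and 7.01 to 7.23 in FIRE -/- mice. The part of the latter in the former was not tested. Between tissues, 32.2% of all clusters were higher in hippocampus, the share to set beside each count that follows. All 14 auxiliary subunits of AMPA and kainate receptors, which guide traffic and gating, were higher in hippocampus (median 5.03). They ran from *Gsg1l* at 2.23 to *Cacng3* at 7.32. All 13 measured genes of the excitatory postsynaptic scaffold were higher as well (median 3.09), from the adaptor *Pick1* at 0.33 to *Dlgap1* at 6.71. Of 13 measured genes of transmitter synthesis and transport 12 were higher (median 4.04), led by *Slc17a7*, the vesicular glutamate transporter of pyramidal cells, at 8.16, and *Slc1a1* did not pass at 0.17. Of 5 measured genes of the inhibitory scaffold 4 were higher, led by *Lhfpl4* at 4.403, and *Gabarap*, which serves autophagy in many cells, was lower at -0.41. Of the 4 auxiliary subunits of GABA-B receptors 3 were higher, led by *Kctd16* at 4.84.

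Receptor genes outside the 31 were examined in the same way. Of 16 listed, 8 had a cluster of their own and the rest were not analysed here. Of these 8, 3 were higher in hippocampus and 1 lower, with a median of 0.10. Among all clusters 32.2% were higher, so the count of 3 was near that share, and 7656 of 21218 were lower. The delta receptor gene *Grid1* differed by 5.55, and *Grm6*, the receptor of retinal bipolar cells, by -0.24 in the other direction. *Gabra6*, known from cerebellar granule cells, was at 0.11 and did not pass. *Gabre*, *Gabrp* and *Gabrr3* did not pass either, at -0.19, -0.09 and 0.09.

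**Figure D5:**
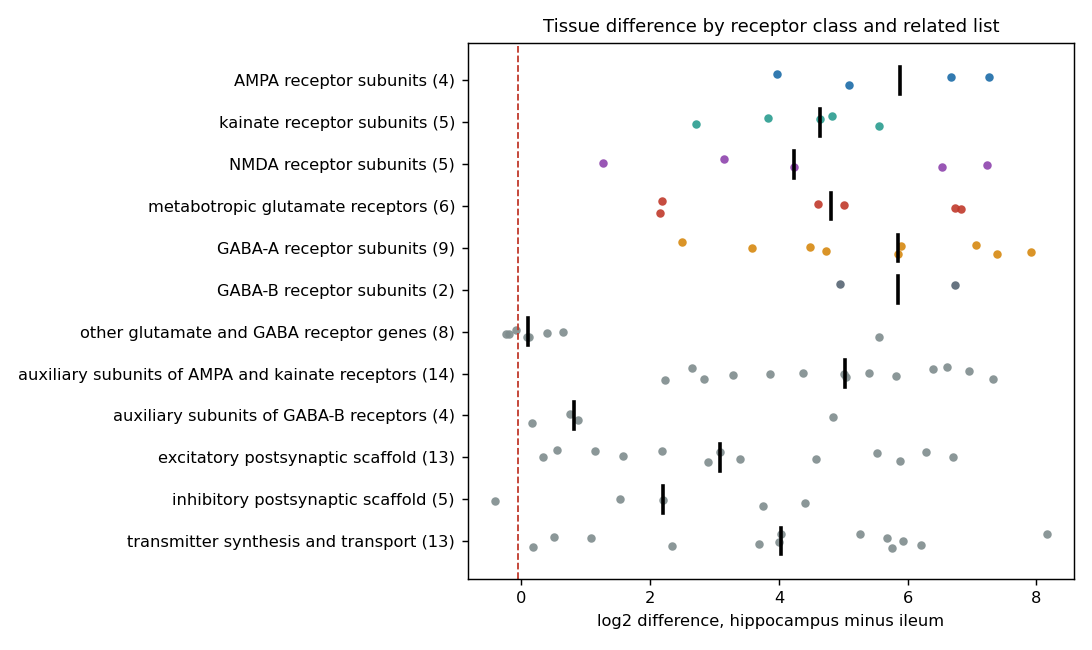
Log2 difference, hippocampus minus ileum, of each gene (points) with list medians (black bars), for the 6 receptor classes in colour and related lists in grey, with the number of measured genes in brackets. The dashed line is the median of all clusters (-0.05), and all 31 receptor subunit genes lie to its right, from 1.27 to 7.91.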

How the data were processed

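Total RNA of 6 hippocampus and 6 ileum samples was hybridised to Affymetrix Mouse Gene ST arrays. The authors normalised the array images by RMA, in a version not given in the sources used here, and deposited log2 values for 35556 transcript clusters, which were used unscaled. By the platform annotation 21218 clusters carried 1 gene symbol and were tested, 1881 carried several and 12457 none. A gene with several clusters was represented by the one of highest mean signal. Genotypes were compared within each tissue, and tissues and the tissue by genotype difference over all 12 arrays in 4 groups, with limma 3.58.1 (lmFit and eBayes) in R 4.3.3, two-sided, with Benjamini-Hochberg adjustment over all 21218 clusters at a threshold of 0.05. The fits were tested on simulated data. For arrays, their number limits the precision.

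The receptor genes were listed by symbol, with no cutoff on their values, but they and the pathway and marker lists were chosen with earlier results of these data known. Values on every array are given for the largest and smallest genotype difference of each class in the hippocampus. They are also given for genes with an unadjusted p under 0.05 in a genotype comparison. For the largest and smallest tissue difference of each class, the range and median of each tissue are given. In the pathway lists, genes with the largest tissue difference in each direction are named, and others were named after their values were seen. Promoter windows came from RefSeq (GRCm38.p6), which held one for 22 of the 31 genes. No build is named by the authors for the array values, so these coordinates are RefSeq's. The alternatives were a filter on dim clusters, a second quantile normalization, all clusters, other variance shrinkage, labelled sex, array weights, a block for the arrays' code number, 1 fit of all arrays, and leaving out arrays. The other clusters of *Gabrb2* were also put in its place, and a 2-fold limit was set on the tissue differences.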

Additional observations from a re-analysis of the deposited data

How the results depend on the processing

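Under every alternative run, 0 of the receptor genes passed in the hippocampus, in the ileum and in the tissue by genotype difference, and every receptor gene tested was higher in hippocampus. *Grin2d* fell short of a 2-fold limit on the tissue difference within FIRE -/- mice, at 0.89. With only clusters above the median signal 21 receptor genes were left in the tissue comparison, and their median difference was 5.85 in place of 4.95, since the genes with dim signal were no longer counted. That filter left 29 genes for the hippocampus comparison and 2 for the ileum comparison. The median genotype difference in the hippocampus ranged from -0.05 without G07 to 0.09 with labelled sex as a covariate, and was -0.01 with array weights. It was 0.08 with a block for the arrays' code number, which compares H07 with the FIRE +/+ arrays of its code, since A09 and B09 share theirs with no FIRE +/+ hippocampus array. The cause of these shifts was not tested. Labelled sex was used as given, though B09, labelled female, had *Xist* and *Eif2s3y* signal like the arrays labelled male. The smallest adjusted p of any receptor gene in the hippocampus was 0.370, with the variance of each cluster alone, and 0.373 without F07. Estimates of single genes were set against the gene's spread between replicates, with each gene and setting counted apart. In the hippocampus 1 estimate moved by more than this spread and 462 did not. In the ileum 5 did and 431 did not, and for tissue by genotype 5 did and 605 did not. Tissue differences were not sorted by size, since all passed under each setting. That of *Gabbr2*, for example, went from 6.73 to 6.92 with a second quantile normalization. With 3 arrays in a group the hippocampus difference of *Grm8*, 0.37 with an SE of 0.26, could not be told from 0. The median SE of the receptor genes in the hippocampus was smaller, at 0.12.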
